A study of Mus musculus with 20 samples.

Results

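The genes described here encode the machinery that stores neurotransmitter in synaptic vesicles, releases it at the presynaptic terminal and recovers the vesicle membrane afterwards. They are 33 genes out of the 39174 in the deposited tables, taken by gene symbol, and they occupy 34 rows because Pclo is listed under 2 identifiers. The measurements come from RNA-seq of embryonic mouse motoneurons grown in microfluidic chambers, in which axons extend through narrow channels into a compartment of their own, so that RNA of the somatodendritic compartment (cell bodies and dendrites) and of the axonal compartment was collected separately. Every culture was transduced with a lentivirus. The control cultures received the empty expression vector and the knockdown cultures a vector that carries a short hairpin RNA against Tdp-43, an RNA-binding protein whose gene symbol is Tardbp. There were 4 somatodendritic and 4 axonal control libraries and 6 somatodendritic and 6 axonal knockdown libraries, 20 in all, prepared from pre-amplified total RNA of motoneurons enriched from spinal cords of CD-1 mouse embryos with an antibody against the p75 receptor. The labels give no single culture for a replicate number, so the p-values below measure the spread between these libraries, part of which may be technical. The questions were whether the transcripts of these genes differ in level between the 2 compartments, and whether they differ between control and Tdp-43 knockdown motoneurons within each compartment.

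At a chemical synapse, vesicles are tethered near the release site by Rab3 GTPases and by the large scaffold proteins of the active zone, are primed by Munc13 proteins, and fuse when the vesicle SNARE protein synaptobrevin zippers together with syntaxin and SNAP-25 on the plasma membrane. Complexins clamp this assembly and synaptotagmins trigger it on binding calcium. NSF and its SNAP adaptors then take the SNARE complex apart, and clathrin adaptors, amphiphysin, dynamin and synaptojanin retrieve the membrane. Motoneurons use this machinery to release acetylcholine at the neuromuscular junction, and most of its proteins are made in the cell body and carried down the axon. TDP-43 binds RNA with a preference for stretches rich in UG, often within introns and 3′ UTRs, and acts in splicing, stability and transport of its targets.

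Because of that preference, the longest protein-coding GENCODE M21 transcript of each gene was searched on its sense strand for TG runs, defined as at least 6 TG units in a row (TGTGTGTGTGTG, 12 bases). This search was chosen with the knockdown values of these genes already known. Of the 33 genes, 5 held such a run (15.2%), against 1402 of 21901 protein-coding genes (6.40%) and 7.43% of the protein-coding genes whose transcript lengths fall between the quartiles of the members' lengths. All 5 lay in a 3′ UTR. They are shown because the 3 members that were higher at an unadjusted p in somatodendritic knockdown libraries, described further below, are among these 5. The sequences are those of the GRCm38 reference, 5′ to 3′ on the strand of the gene, with the run in capitals and with at most 30 bases printed. They come from Vamp2 (chr11:69090759-69090788, plus strand, a run of 14 bases), Sv2a (chr3:96194543-96194572, plus strand, 14 bases), Rab3c (chr13:110056834-110056863, minus strand, the first 30 bases of a run of 42), Bsn (chr9:108096424-108096453, minus strand, the longest of 3 runs with 26 bases) and Unc13a (chr8:71628386-71628415, minus strand, 12 bases).

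Vamp2: tggatccgTGTGTGTGTGTGTGtccgtgtg

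Sv2a: cgtgcgcaTGTGTGTGTGTGTGtaccatgg

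Rab3c: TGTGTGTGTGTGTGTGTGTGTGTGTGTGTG

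Bsn: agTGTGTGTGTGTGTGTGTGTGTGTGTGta

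Unc13a: ctctgcacaTGTGTGTGTGTGgctgtgtgt

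The number of members with a run depended on the length required. With 10 bases 7 members held one, adding Cplx2 and Sypl (21.2%, against 9.42% of all protein-coding genes), and with 16 bases only Bsn and Rab3c did (6.06%, against 4.52%). A run is a match of letters in the reference and not a measured binding site.

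Levels are given as FPKM (fragments normalized to transcript length and to the fragments mapped in the library) as the authors deposited them. FPKM are divided by transcript length, so that levels of different genes can be compared within a library. For tests, the values were scaled between libraries by the median of ratios and set to log2(scaled FPKM + 1), a scale that understates changes of low transcripts, and differences are log2 differences ± standard error from limma. A transcript is said to have risen or fallen only if its Benjamini-Hochberg adjusted p over all genes tested was under 0.05. Counts at an unadjusted p under 0.05, the threshold of the study, are given beside that. In bulk RNA, fewer cells of a kind and less RNA per cell cannot be told apart.

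The libraries differed in depth and in content. Depth relative to the deepest library, inferred from the deposited 95% intervals, ranged from 0.103 (axonal knockdown 5) to 1, and lay under 0.5 in axonal knockdown 2, 4 and 5 and in somatodendritic knockdown 5 and 6. For the median of the members above 0 FPKM, the upper bound of the interval lay 25.2 to 30.6% above the value in somatodendritic controls and 55.6 to 71.6% in axonal controls. It lay 28.01 to 80.5% above it in somatodendritic knockdown and 27.2 to 369% in axonal knockdown libraries. Tardbp averaged 14.7% of control in somatodendritic knockdown libraries (0.00 to 8.54 against 19.0 to 30.8 FPKM, exact permutation p = 0.00476, two-sided, the smallest that 4 against 6 libraries allow). In axons it averaged 52.9% as deposited (exact permutation p = 0.138), 35.1% after scaling (exact permutation p = 0.00952) and 36.5% as deposited without the library labelled axonal knockdown 1 (exact permutation p = 0.0159), which held 33.2 FPKM, above every axonal control. The motoneuron markers Chat, Isl2 and Mnx1 were listed at 0 in all 20 libraries, and the sum over the 9 motoneuron markers analysed lay between 1.44 and 32.7 FPKM.

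Knockdown libraries 3 and 4 of the axonal compartment stood apart from the other axonal libraries for these genes. The 33 members summed to 2454 FPKM in axonal knockdown 3 and to 1961 FPKM in axonal knockdown 4, against 412 to 896 FPKM in the other 4 axonal knockdown libraries and 637 to 836 FPKM in the axonal controls. The somatodendritic sums were 2092 to 2276 FPKM in control and 1815 to 2781 FPKM in knockdown libraries, so that the totals of these 2 axonal libraries lay within or near the somatodendritic range. They were the highest pair of axonal knockdown libraries for 20 of the 33 members (60.6%), against 1978 of 13982 genes of at least 1 FPKM on average (14.1%). Part of that excess follows from picking the pair by the sum of these members. The sum of the 5 pan-neuronal transcripts Tubb3, Map2, Rbfox3, Stmn2 and Gap43 was also high in them, with 1768 and 1582 FPKM against 686 to 843 FPKM in the other axonal knockdown libraries, but below the 1857 FPKM of the lowest somatodendritic library. Several other sums in libraries 3 and 4 lay outside the somatodendritic range, with 2307 and 2035 FPKM for the nuclear RNAs Malat1, Neat1, Meg3 and Snhg11 (somatodendritic at most 1366 FPKM), 30.9 and 119 FPKM for the astroglial markers (at least 189.7 FPKM) and 8.09 and 31.5 FPKM for the oligodendrocyte and Schwann cell markers (at least 52.1 FPKM). The nuclear RNAs also exceeded that range in axonal knockdown 2 and 6, with 1438 and 1964 FPKM. The dividing-cell transcripts summed to 80.3 FPKM in library 3 and to 19.3 FPKM in library 4. Their sums were 0.955 to 69.3 FPKM in somatodendritic libraries and 94.4 to 179 FPKM in axonal controls. The counts and medians of the comparisons with axonal knockdown libraries are therefore given below with and without these libraries. The pair was set apart by the levels of the members themselves, so that leaving it out favours lower axonal knockdown values of the members.

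**Figure D1:**
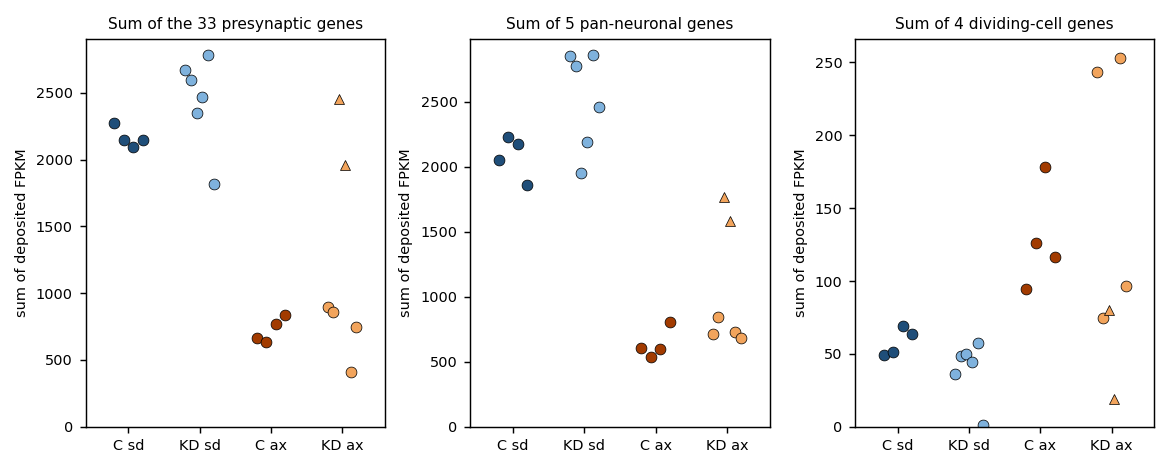
Summed FPKM per library of the 33 presynaptic members, of the 5 pan-neuronal transcripts and of 4 dividing-cell transcripts (Mki67, Top2a, Ccnb1, Cdk1), by group: control somatodendritic (C sd), knockdown somatodendritic (KD sd), control axonal (C ax) and knockdown axonal (KD ax). Each point is 1 library and triangles mark axonal knockdown libraries 3 and 4, whose member sums of 2454 and 1961 FPKM lie among the somatodendritic values.

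Among control somatodendritic libraries the highest members were the vesicle GTPase Rab3a with a mean of 262 FPKM, Sncb (beta-synuclein) with 260 FPKM, Snap25 with 221 FPKM, Vamp2 (synaptobrevin 2) with 168 FPKM and Syp (synaptophysin) with 147 FPKM. In control axons the order began with Rab3a at 87.4 ± 33.5, Sncb at 69.4 ± 2.49, Snap25 at 56.1 ± 19.2, Dnm1 (dynamin 1) at 56.0 ± 10.4 and Cplx1 (complexin 1) at 55.6 ± 13.5 FPKM (mean ± SD, n = 4). Each overlapped with its neighbours in this order, so that the order of the 5 is not larger than the spread between libraries. Sncg (gamma-synuclein) was the lowest member, at 0 in 3 of 4 control libraries of each compartment. Low levels were also seen for Sypl, with 3.48 to 5.06 FPKM in somatodendritic controls, and for Sv2b, with 4.78 to 6.05 FPKM in somatodendritic and 0.386 to 3.45 FPKM in axonal controls. The 4 SNARE transcripts made up 21.2% of the summed level of the members in somatodendritic controls and 16.7% in axonal controls, the 3 Rab3 transcripts 15.9% and 16.2%, and the 5 active-zone transcripts 4.89% (4.66 to 5.22%) and 7.46% (6.24 to 9.75%).

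**Figure D2:**
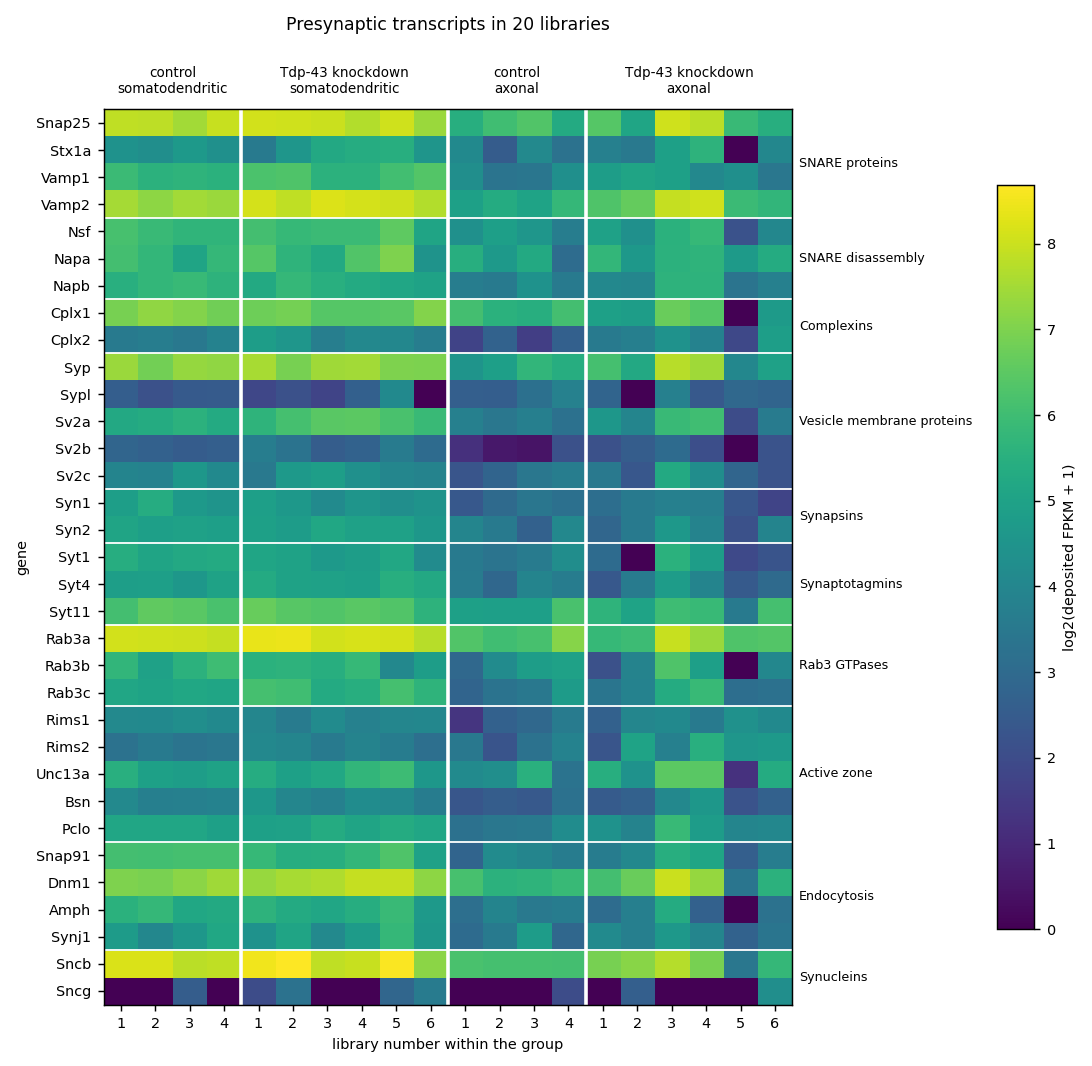
Level of the 33 members (rows, by role) in each of the 20 libraries (columns, by group and replicate), as log2(FPKM + 1) of the deposited values. Lighter colours mark higher levels. Somatodendritic columns are lighter than axonal columns for most rows, and axonal knockdown columns 3 and 4 resemble the somatodendritic ones.

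In control motoneurons, most presynaptic transcripts were lower in axons than in the somatodendritic compartment relative to the other transcripts of the libraries. Of the 32 members tested (Sncg was under the minimum mean of 1 FPKM), 30 had a negative log2 difference. The median difference was -0.99, or 50.2% of the somatodendritic level, against -0.06 over all 13760 genes tested. At an unadjusted p under 0.05, 23 members were lower (71.9%) and 1 was higher, where 11.8% of all genes were lower and 11.1% higher. At an adjusted p under 0.05, 13 members fell (40.6%), where 2.97% of all genes did, and 0 rose, where 3.93% did. The number that fell depended on single libraries and on the fit, with 6 without somatodendritic control 2 or 3, 7 without somatodendritic control 1, 8 without axonal control 2, 18 without axonal control 4 and 2 in a fit over all 20 libraries. The number of all genes that fell moved as well, from 408 of 13760 in the main fit. It was 108 and 114 without somatodendritic control 2 or 3 and 107 without somatodendritic control 1. Without axonal control 2 it was 254, without axonal control 4 735 and in the fit over all 20 libraries 93, out of 13693 to 14062 tested. Somatodendritic and axonal values did not overlap for 20 members that were lower (62.5%) and 1 that was higher, compared with 8.54% and 7.66% of all genes. With FPKM as deposited 24 members fell, but the median of all genes was then -0.48, with 12.4% of all genes falling. The higher share among genes called at an unadjusted p was 48.5% with scaling and 17.1% without, so that the differences are best read relative to that shift. The members' median lay 0.94 below that of all genes with scaling and 0.99 below it without. The markers of other cells moved as well. The summed level of the dividing-cell transcripts was 94.4 to 179 FPKM in axonal and 49.1 to 69.3 FPKM in somatodendritic controls, that of the 6 fibroblast and meningeal markers 11.9 to 47.9 and 1.94 to 12.5 FPKM, and that of the 5 pan-neuronal transcripts 535 to 805 and 1857 to 2233 FPKM. Axonal sums were lower without overlap for the oligodendrocyte and Schwann cell markers (9.40 to 43.7 against 56.1 to 106 FPKM), the microglia markers (at most 1.38 against 5.24 to 8.78 FPKM) and the 4 nuclear RNAs (439.9 to 742 against 776 to 1147 FPKM). They overlapped for the astroglial markers (79.6 to 460.1 against 269 to 351 FPKM) and the endothelial ones (0.00 to 5.75 against 0.470 to 4.09 FPKM). The part of these in the lower presynaptic levels was not tested. The ratio of the members' sum to the pan-neuronal sum was 1.04 to 1.29 in axonal and 0.961 to 1.16 in somatodendritic controls, ranges that overlap.

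**Figure D3:**
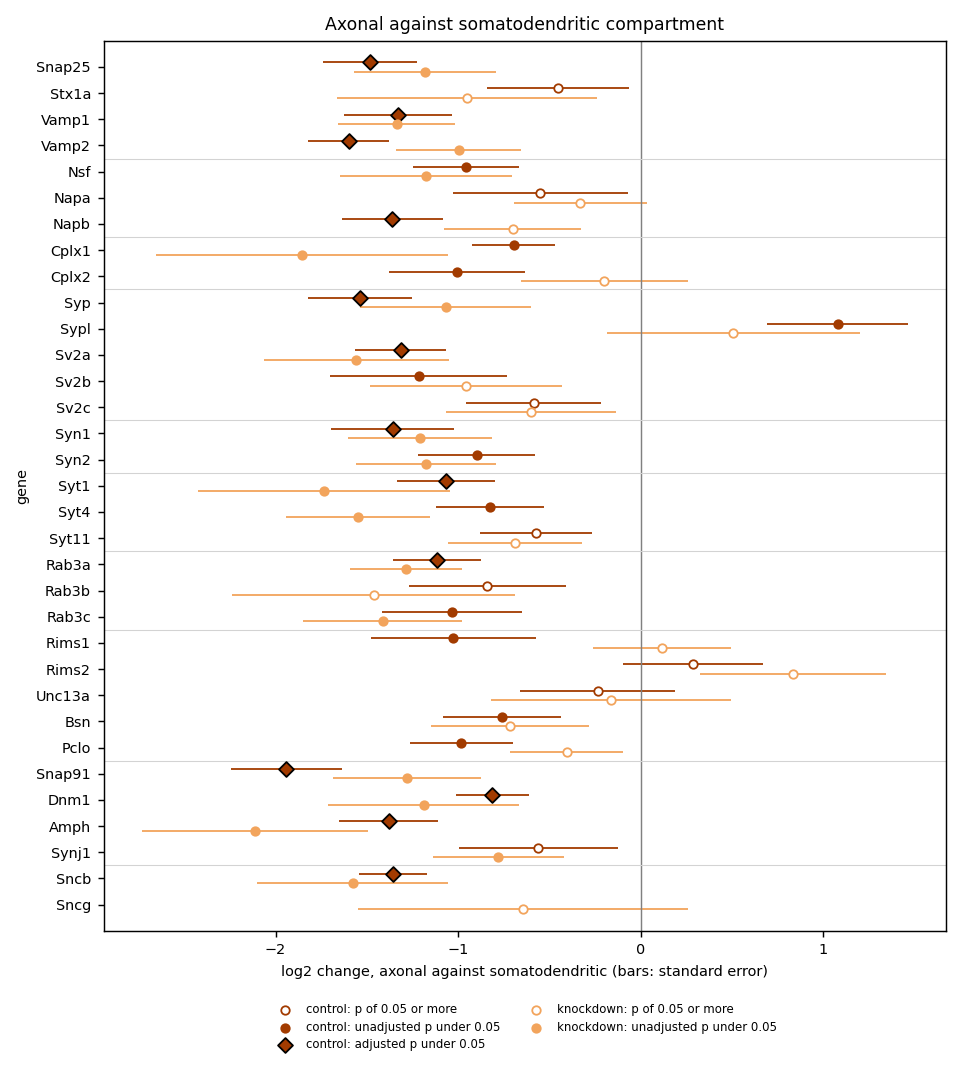
Difference between axonal and somatodendritic libraries for each member, by role, as log2(scaled FPKM + 1) with its standard error, in control and in knockdown motoneurons. In control, 30 of 32 members lie below 0 and Sypl and Rims2 above it.

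Among the SNARE proteins, which form the fusion complex, 3 of 4 transcripts fell. Vamp2, the main synaptobrevin of the vesicle, held 184, 146, 179 and 164 FPKM in the somatodendritic control libraries and 29.4, 39.7, 32.0 and 54.3 FPKM in the axonal ones. All 4 axonal values were below the lowest somatodendritic one, and the difference was -1.60 ± 0.22 (adjusted p = 0.00327). Snap25, the plasma membrane SNARE, held 233, 224, 176 and 249 FPKM in somatodendritic and 42.2, 64.4, 79.2 and 38.6 FPKM in axonal controls. The values did not overlap (-1.48 ± 0.26, adjusted p = 0.00837). Vamp1, the second synaptobrevin, was at 50.4 and 14.1 FPKM on average (-1.33 ± 0.30, adjusted p = 0.0251). Stx1a (syntaxin 1A) was at 20.97 and 11.5 FPKM and did not pass the test (-0.45 ± 0.39, adjusted p = 0.530). Of the proteins that take the complex apart, Napb (beta-SNAP) fell (-1.36 ± 0.28, adjusted p = 0.0165), Nsf, the ATPase, had a difference of -0.96 ± 0.29 (adjusted p = 0.0747) and Napa (alpha-SNAP) one of -0.55 ± 0.48.

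Both complexins, which bind the assembled SNARE complex, were lower only at an unadjusted p. Cplx1 held 119, 152, 132 and 111 FPKM in somatodendritic and 66.9, 45.8, 42.2 and 67.5 FPKM in axonal controls, without overlap. Its difference of -0.70 ± 0.23 (adjusted p = 0.0929) was smaller than that of any member that fell, and as deposited its axonal mean was 0.432 of the somatodendritic one. Cplx2 was at 11.5 and 3.84 FPKM (-1.01 ± 0.37, adjusted p = 0.133).

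Of the vesicle membrane proteins, 2 of 5 fell and 1 lay in the opposite direction. Syp, the most abundant of them, held 165, 114, 157 and 151 FPKM in somatodendritic and 21.3, 29.0, 52.0 and 41.8 FPKM in axonal controls. No axonal value came near the lowest somatodendritic one (-1.54 ± 0.29, adjusted p = 0.0110). Sv2a, the widely expressed form of the vesicle glycoprotein SV2, held 36.8, 39.2, 47.3 and 38.9 FPKM and 12.8, 9.90, 12.3 and 8.55 FPKM. It fell by 1.31 ± 0.25 on the log2 scale (adjusted p = 0.0121). Sv2b (-1.22 ± 0.48) and Sv2c (-0.59 ± 0.37), the related SV2 forms, had adjusted p of 0.163 and 0.380. Sypl, a synaptophysin relative found in many cell types outside neurons, held 5.06, 3.48, 4.56 and 4.58 FPKM in somatodendritic and 5.24, 5.002, 8.28 and 13.2 FPKM in axonal controls. As deposited the 2 groups overlapped, with 5.002 FPKM in axonal library 2 just under 5.06 FPKM in somatodendritic library 1, and after scaling they did not. It was the one member higher in axons at an unadjusted p (1.08 ± 0.39, adjusted p = 0.123), in 15 of 17 alternatives, and as deposited it was at 0.64 and did not pass that threshold (adjusted p = 0.277).

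Syn1 (synapsin I), which tethers vesicles to the cytoskeleton, held 28.5, 41.0, 24.3 and 21.3 FPKM in somatodendritic and 4.31, 7.08, 9.60 and 8.15 FPKM in axonal controls. All axonal values were under 10 FPKM, and the transcript fell (-1.36 ± 0.34, adjusted p = 0.0364). Syn2 (synapsin II) was lower without overlap but did not pass (-0.90 ± 0.32, adjusted p = 0.121). Syt1, the calcium sensor of fast release, held 41.7, 32.99, 37.2 and 38.4 FPKM and 10.9, 9.05, 11.4 and 18.1 FPKM. It fell by 1.06 ± 0.27 on the log2 scale (adjusted p = 0.0395). Syt4 and Syt11, synaptotagmins that do not act as the trigger of fast release, had differences of -0.82 ± 0.30 and -0.57 ± 0.31 (adjusted p = 0.125 and 0.292).

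Rab3a, the most abundant vesicle GTPase, held 275, 268, 261 and 242 FPKM in somatodendritic and 78.5, 63.3, 70.8 and 137 FPKM in axonal controls. Control axonal library 4 was the highest of the axonal values but still below every somatodendritic one (-1.11 ± 0.24, adjusted p = 0.0223). Rab3c held 34.5, 32.3, 34.9 and 33.2 FPKM and 5.96, 8.91, 10.2 and 26.2 FPKM, with the same axonal library highest (-1.03 ± 0.38, adjusted p = 0.136). Rab3b ranged from 30.5 to 62.7 FPKM and from 6.56 to 30.1 FPKM (-0.84 ± 0.43, adjusted p = 0.273).

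None of the 5 active-zone transcripts, which encode the scaffold and priming factors of the release site, fell at an adjusted p, and 3 were lower at an unadjusted p. Pclo (piccolo) averaged 33.1 FPKM in somatodendritic and 11.7 FPKM in axonal controls (-0.98 ± 0.28, adjusted p = 0.0608), Bsn (bassoon) 13.7 and 5.46 FPKM (-0.76 ± 0.32, adjusted p = 0.187) and Rims1 16.8 and 6.28 FPKM (-1.03 ± 0.45, adjusted p = 0.206). Unc13a, which encodes the priming factor Munc13-1, averaged 32.9 and 22.3 FPKM (-0.24 ± 0.42, adjusted p = 0.783). Rims2 averaged 9.57 and 8.98 FPKM, the nearest to equal levels of all members as deposited (0.29 ± 0.38, adjusted p = 0.704). The other row under the symbol Pclo, a lincRNA, held 3.57 to 12.2 FPKM in somatodendritic and 0.00 to 1.12 FPKM in axonal controls and is not counted among the members.

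In the endocytic group 3 of 4 transcripts fell. Snap91 (AP180), the neuronal clathrin adaptor, held 66.9, 65.6, 68.4 and 68.3 FPKM in somatodendritic and 5.98, 17.1, 14.6 and 11.6 FPKM in axonal controls. This was the largest difference among the members, -1.94 ± 0.30 (adjusted p = 0.00509). Amph (amphiphysin) held 45.4, 54.0, 34.8 and 37.9 FPKM and 7.94, 14.2, 10.3 and 11.5 FPKM, again without overlap (-1.38 ± 0.27, adjusted p = 0.0140). Dnm1, the GTPase that cuts the vesicle neck, held 128, 123, 145 and 173 FPKM and 70.2, 47.4, 49.3 and 57.0 FPKM (-0.81 ± 0.20, adjusted p = 0.0366). Synj1 (synaptojanin) averaged 24.8 and 12.8 FPKM (-0.56 ± 0.44, adjusted p = 0.488). Sncb, a vesicle-associated synuclein, held 295, 292, 219 and 233 FPKM and 72.6, 68.5, 69.6 and 66.7 FPKM, with little spread among axons (-1.36 ± 0.19, adjusted p = 0.00300).

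In Tdp-43 knockdown motoneurons the members again lay lower in axons, with more spread between axonal libraries. The median difference over 33 members was -1.07, against -0.07 over 14021 genes, and 30 members were below 0. At an unadjusted p under 0.05, 18 members were lower (54.5%) and 0 higher, where 8.73% of all genes were lower and 7.86% higher. At an adjusted p under 0.05, 0 members changed, where 1.28% of all genes did. The largest differences were those of Amph (-2.11 ± 0.62, adjusted p = 0.0984), Cplx1 (-1.86 ± 0.80, adjusted p = 0.254) and Syt1 (-1.74 ± 0.69, adjusted p = 0.215). Each was listed at 0 in 1 shallow library, Amph and Cplx1 in axonal knockdown 5 and Syt1 in axonal knockdown 2. Without the libraries of a relative depth under 0.5 they were at -1.385, -1.05 and -1.22, and Rab3c, Syn1 and Syt4 lay lower at -1.65, -1.57 and -1.55. With all knockdown libraries and after scaling, values of the 2 compartments did not overlap for Syn1, Syn2, Syt4 and Rab3a, all lower in axons (12.1% of members, where 1.37% of all genes were lower and 1.1% higher without overlap), and as deposited those of Syn2 and Rab3a overlapped. Axonal knockdown 3 and 4 were set apart by the members' own levels, so leaving them out favours lower axonal values of the members. Without them the median was -1.51, against -0.11 over all genes. At an unadjusted p 25 members were lower (75.8%), where 13.04% of all genes were lower and 10.24% higher. At an adjusted p 16 fell (among them Snap25, -1.86 ± 0.24, adjusted p = 0.000834, Rab3a, -1.75 ± 0.23, adjusted p = 0.00107, and Syt1, -2.83 ± 0.52, adjusted p = 0.00703), where 3.85% of all genes fell. Amph then fell (-2.56 ± 0.63, adjusted p = 0.0268), and Cplx1 was at -2.77 ± 0.80 (adjusted p = 0.0508). With FPKM as deposited the median of all genes was -0.24 and 3 members fell, and the higher share among called genes was 47.4% with scaling and 30.4% without. Summed levels in axonal against somatodendritic knockdown libraries were 1155 to 2307 against 677 to 1366 FPKM for the nuclear RNAs, 19.3 to 253 against 0.955 to 57.4 FPKM for the dividing-cell transcripts, 20.3 to 101 against 1.80 to 13.9 FPKM for the fibroblast and meningeal markers and 7.27 to 83.5 against 52.1 to 121 FPKM for the oligodendrocyte and Schwann cell markers. The pan-neuronal sum was 686 to 1768 against 1953 to 2864 FPKM, without overlap, and the ratio of the members' sum to it 0.568 to 1.39 against 0.738 to 1.20. The part of these in the differences was not tested.

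The spread is visible in single transcripts. Amph ranged from 24.1 to 57.7 FPKM (median 40.3) in somatodendritic knockdown and from 0.00 to 39.5 FPKM (median 8.02) in axonal knockdown libraries, where axonal library 3 was the highest and axonal library 5 was at 0. Cplx1 ranged from 82.3 to 135 FPKM (median 97.9) and from 0.00 to 103 FPKM (median 28.8). Its axonal values were 103 and 82.4 FPKM in libraries 3 and 4 and at most 29.99 FPKM in the others. Syp ranged from 118 to 188 FPKM (median 152) and from 15.3 to 217 FPKM (median 53.0). Sncb ranged from 143 to 411 FPKM (median 304) and from 9.85 to 210 FPKM (median 119), Snap25 from 164 to 270 FPKM (median 259) and from 33.6 to 264 FPKM (median 70.8), and Rab3a from 213 to 346 FPKM (median 281) and from 55.0 to 246 FPKM (median 79.5). For Syp, Snap25 and Rab3a, axonal libraries 3 and 4 were the highest of the 6. Sypl ranged from 0.00 to 16.5 FPKM (median 3.02) and from 0.00 to 12.9 FPKM (median 5.97), and the 2 compartments overlapped fully (0.51 ± 0.69, adjusted p = 0.761).

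**Figure D4:**
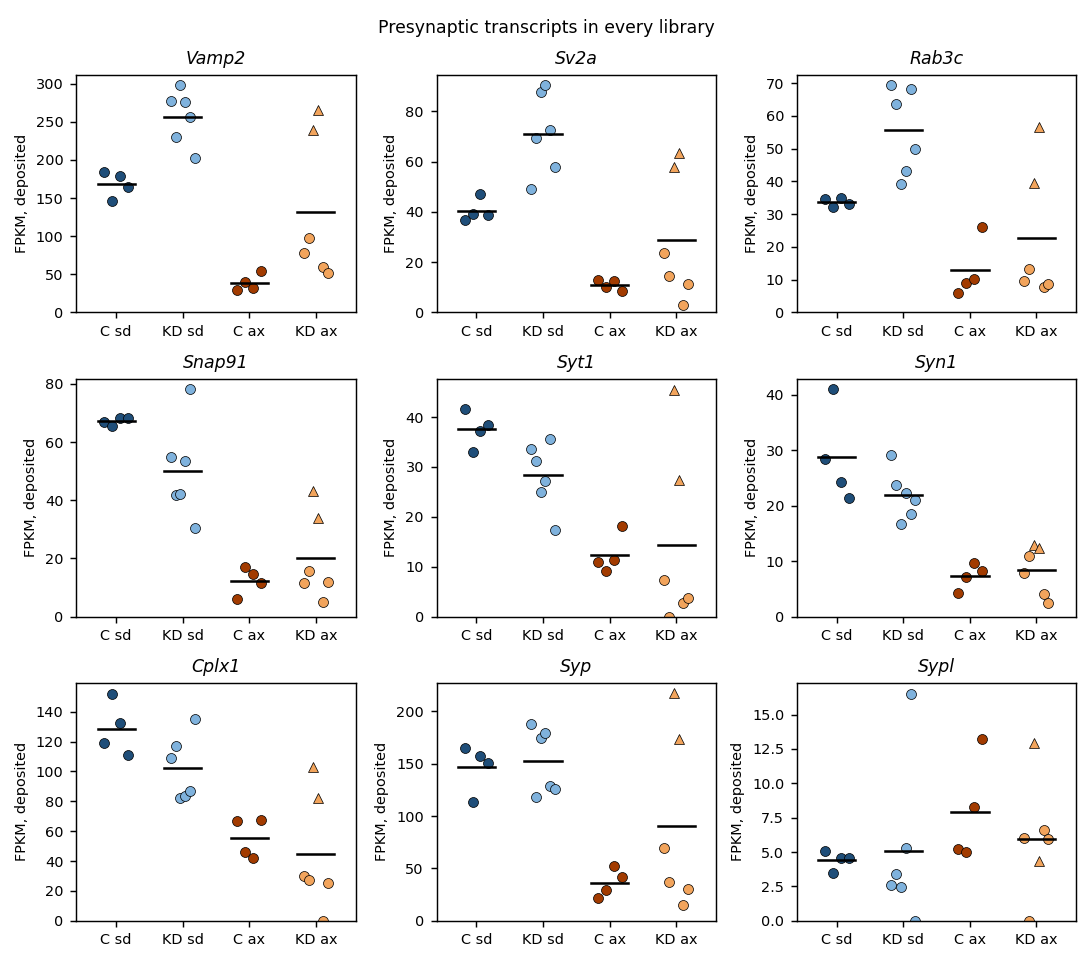
FPKM as deposited of 9 members in every library, by group (C sd, control somatodendritic; KD sd, knockdown somatodendritic; C ax, control axonal; KD ax, knockdown axonal). Points are libraries, triangles axonal knockdown 3 and 4, and bars group means. Vamp2, Sv2a and Rab3c have all 6 somatodendritic knockdown values above the 4 controls, and Sypl is the panel in which axonal controls are not lower.

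In the somatodendritic compartment, differences between Tdp-43 knockdown and control lay in both directions among the presynaptic transcripts and none passed the adjusted threshold. The median difference was -0.09 over the 33 members and -0.13 over 13762 genes. At an adjusted p under 0.05 limma called 0 members, where it called 0.974% of all genes. At an unadjusted p under 0.05, 5 members were lower (15.2%, where 9.22% of all genes were) and 3 were higher (9.09%, where 4.59% were). Control and knockdown values did not overlap for 3 lower members, Snap91, Syt1 and Rims1, and 1 higher member, Vamp2, where 3.6% and 1.9% of all genes did so. Whether the lower members passed the unadjusted threshold depended on scaling and on the fit, and each kept its negative sign in 20 of 20 alternatives. In the fit over all 20 libraries 0 members were lower and 0 higher, where 753 and 172 of 14062 genes were. Control libraries had factors of 0.905 to 0.969 and knockdown libraries of 0.993 to 1.15, so that scaling moved every knockdown difference down. With FPKM as deposited the median of all genes was 0.04, the higher share among called genes went from 33.3% to 63.0%, and 0 members were lower and 4 higher at an unadjusted p (Vamp2, Sv2a, Rab3c and Dnm1, 12.1% of members, where 9.27% of all genes were higher and 5.44% lower), with Vamp2 at an adjusted p of 0.0461. The summed pan-neuronal level was 1953 to 2864 FPKM in knockdown against 1857 to 2233 FPKM in control libraries, and that of the dividing-cell transcripts 0.955 to 57.4 against 49.1 to 69.3 FPKM, and their part in these differences was not tested.

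**Figure D5:**
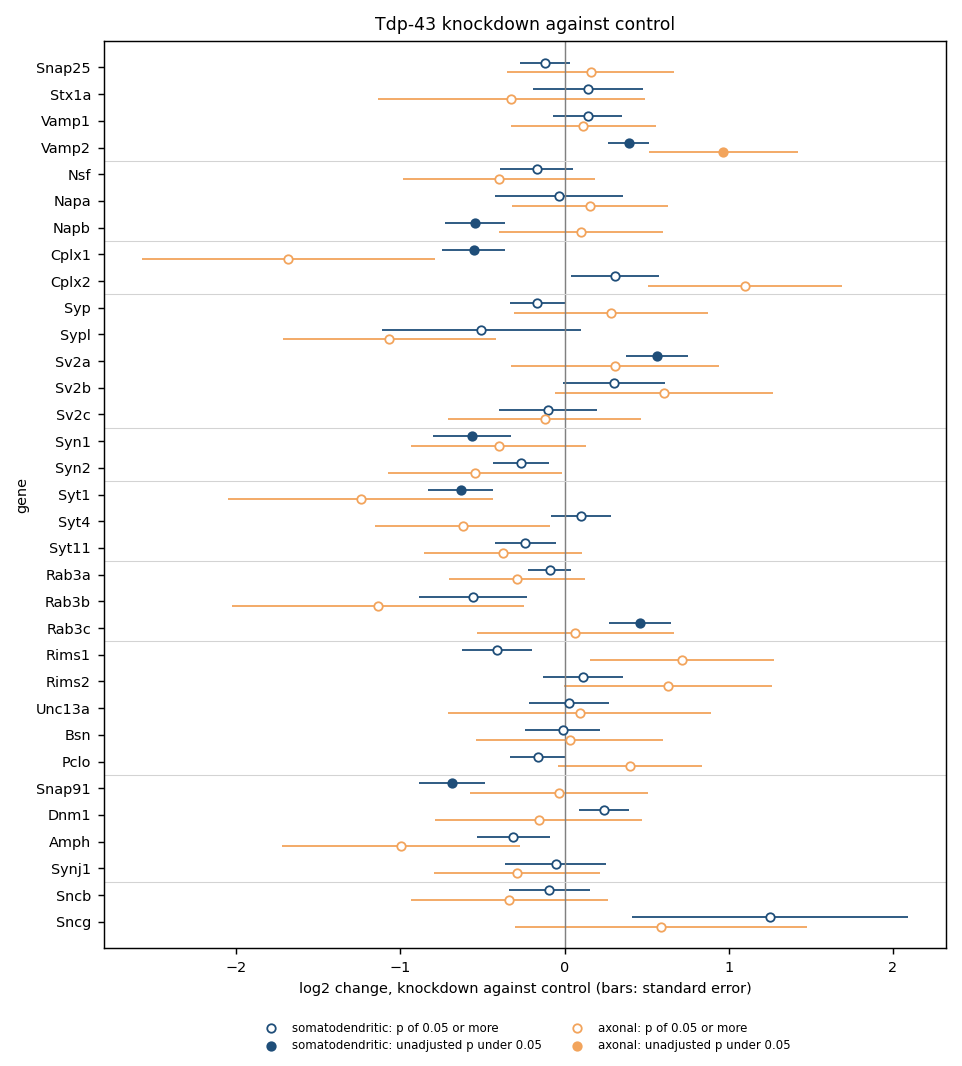
Difference between knockdown and control libraries for each member, by role, as log2(scaled FPKM + 1) with its standard error, for somatodendritic and axonal libraries, with points filled at an unadjusted p under 0.05. Somatodendritic differences lie between -0.69 (Snap91) and 1.25 (Sncg), and the axonal errors are wider.

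The 3 higher transcripts carry the TG runs shown above. Vamp2 held 184, 146, 179 and 164 FPKM in somatodendritic controls and 203 to 299 FPKM (median 267) in knockdown libraries. Every knockdown value was above every control value, and after scaling the difference was 0.39 ± 0.12 (adjusted p = 0.168). Sv2a held 36.8 to 47.3 FPKM in control and 49.3 to 90.4 FPKM (median 71.0) in knockdown libraries, without overlap as deposited and with overlap after scaling (0.56 ± 0.19, adjusted p = 0.198). Rab3c held 32.3 to 34.9 FPKM and 39.2 to 69.4 FPKM (median 56.7), likewise separate only as deposited (0.46 ± 0.19, adjusted p = 0.299). The unadjusted threshold was met in 19 of 20 alternatives for Vamp2 and Sv2a and in 10 for Rab3c. The other 2 transcripts with a run had differences near 0, Bsn -0.01 ± 0.23 and Unc13a 0.03 ± 0.24. Over all genes tested with a transcript in the annotation, 7.42% of 917 with a run were higher and 5.998% lower in the somatodendritic comparison, and 4.78% of 10806 without a run were higher and 7.93% lower. Transcripts with a run were longer (median 5080 against 3166 bases), and the part of length in this difference was not tested.

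Of the 5 lower transcripts, Snap91 held 65.6 to 68.4 FPKM in control and 30.6 to 78.2 FPKM (median 47.8) in knockdown libraries. Somatodendritic knockdown 5 was the highest and overlapped the controls as deposited, and after scaling all 6 were below them (-0.69 ± 0.20, adjusted p = 0.134). It was the one lower member that passed the adjusted threshold under an alternative, with an adjusted p = 0.0367 under array weights and 0.0495 without the libraries under 0.5 of the greatest depth. Syt1 held 32.99 to 41.7 FPKM and 17.4 to 35.6 FPKM (median 29.2), with overlap as deposited and none after scaling (-0.63 ± 0.20, adjusted p = 0.154). Syn1 held 21.3 to 41.0 FPKM and 16.8 to 29.1 FPKM (median 21.6), groups that overlap (-0.56 ± 0.24, adjusted p = 0.311, under the unadjusted threshold in 11 of 20 alternatives). Cplx1 held 111 to 152 FPKM in control against the 82.3 to 135 FPKM in knockdown given above (-0.55 ± 0.19, adjusted p = 0.209), and Napb averaged 50.4 and 40.1 FPKM (-0.55 ± 0.18, adjusted p = 0.195).

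The remaining members had somatodendritic differences that missed both thresholds. The 3 other SNARE transcripts were at -0.12 ± 0.15 (Snap25), 0.14 ± 0.33 (Stx1a) and 0.14 ± 0.21 (Vamp1). Nsf was at -0.17 ± 0.22, Napa at -0.04 ± 0.39 and Cplx2 at 0.31 ± 0.27. Among vesicle proteins Syp was at -0.17 ± 0.17, Sypl at -0.51 ± 0.61, Sv2b at 0.30 ± 0.31 and Sv2c at -0.10 ± 0.30, so that Sv2a was the one SV2 form of 3 past the unadjusted threshold. Syn2 was at -0.26 ± 0.17, Syt4 at 0.10 ± 0.18 and Syt11 at -0.24 ± 0.19. Rab3a, at 213 to 346 FPKM in knockdown against 242 to 275 FPKM in control libraries, was at -0.09 ± 0.13 and Rab3b at -0.56 ± 0.33. Of the active zone, Rims1 was at -0.41 ± 0.21, Rims2 at 0.11 ± 0.25 and Pclo at -0.16 ± 0.17. Amph was at -0.31 ± 0.22, Synj1 at -0.05 ± 0.31 and Dnm1, which held 123 to 173 FPKM in control and 147 to 243 FPKM (median 194) in knockdown libraries, at 0.24 ± 0.15. Sncb was at -0.09 ± 0.25, and Sncg at 1.25 ± 0.84 with 0.00 to 11.3 FPKM in knockdown libraries.

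In axons, scaled knockdown and control values of every member overlapped. The median difference was -0.03 over 33 members and -0.17 over 13958 genes. At an adjusted p under 0.05 limma called 0 members, where 0.401% of all genes were called. At an unadjusted p, 0 members were lower and 1 was higher (3.03%), where 6.46% of all genes were lower and 2.14% higher. Separate groups were seen in 2.02% (lower) and 0.451% (higher) of all genes. The 1 higher member was Vamp2, with 29.4, 39.7, 32.0 and 54.3 FPKM in axonal controls and 51.8 to 266 FPKM (median 87.6) in knockdown libraries. Of its 6 knockdown values, 5 were above the highest control and axonal knockdown 6 was just under it (0.97 ± 0.45, adjusted p = 0.579). It passed the unadjusted threshold in 10 of 21 alternatives and lost it without axonal control 1, 2 or 3, without axonal knockdown 2, 3 or 4, and without axonal knockdown 3 and 4 together (0.42 ± 0.36, adjusted p = 0.738). Vamp2 also lost it with a pseudocount of 0.1, with no filter and with a mean of at least 5 FPKM. The same held without the libraries of a relative depth under 0.5 (0.775, adjusted p = 0.726). As deposited the median was 0.45 over the members and 0.23 over all genes, with 2 members higher (6.06%, where 7.16% of all genes were), and the higher share among called genes went from 24.9% to 72.8%. The nuclear RNAs summed to 1155 to 2307 FPKM in axonal knockdown and 439.9 to 742 FPKM in axonal control libraries, without overlap, and the dividing-cell transcripts to 19.3 to 253 and 94.4 to 179 FPKM, and their part in these values was not tested.

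Many of these values depended on the 2 libraries that stood apart. Without axonal knockdown 3 and 4 the median of the members was -0.58, against -0.20 over all genes, and 3 members were lower at an unadjusted p, Cplx1 (-2.55 ± 0.86, adjusted p = 0.353), Syt1 (-2.27 ± 0.65, adjusted p = 0.261) and Rab3b (-2.04 ± 0.83, adjusted p = 0.475), with 0 higher and 0 at an adjusted p. That is 9.09% of members lower, where 6.73% of all genes were lower and 2.6% higher in this fit. Each of the 3 was listed at 0 in 1 library of a relative depth under 0.5, Cplx1 and Rab3b in axonal knockdown 5 and Syt1 in axonal knockdown 2. Cplx1 held 29.99, 27.5 and 25.6 FPKM in axonal knockdown 1, 2 and 6, against 55.6 FPKM on average in axonal controls. In a fit that kept library 3 but left out every library of a relative depth under 0.5, the differences were -0.92 for Cplx1, -0.64 for Syt1 and -0.60 for Rab3b, against -1.68, -1.24 and -1.13 with all libraries. Without axonal knockdown 3 alone 2 members were lower (6.06%) and 0 higher, where 6.79% of all genes were lower and 2.16% higher. Without axonal knockdown 4 alone 1 member was lower (3.03%) and 0 higher, where 6.02% of all genes were lower and 2.29% higher. Syt1 was at 9.05 to 18.1 FPKM in axonal controls. In axonal knockdown libraries 3 and 4 it was at 45.4 and 27.4 FPKM, and in the other 4 at 0.00 to 7.29 FPKM, below every control. Axonal Dnm1 showed the same split, with 251 and 159 FPKM in libraries 3 and 4 and a range of 9.30 to 103 FPKM in the others, against 47.4 to 70.2 FPKM in controls. Sv2a was at 57.8 and 63.6 FPKM in libraries 3 and 4 and averaged 13.1 FPKM over the other 4, against 8.55 to 12.8 FPKM in controls. Rab3c averaged 48.1 FPKM over libraries 3 and 4 and 9.80 FPKM over the others, and Snap91 38.4 and 11.1 FPKM. Syn1 split less, with 12.9 and 12.3 FPKM in libraries 3 and 4 and 2.45 to 10.9 FPKM in the other 4. Other members did not split in this way. Vamp1 averaged 22.9 FPKM over libraries 3 and 4 and 22.3 FPKM over the others, and Rims1 13.8 and 14.2 FPKM. Cplx2 averaged 17.1 and 13.5 FPKM, against 2.08 to 5.64 FPKM in axonal controls, and its difference of 1.10 ± 0.59 (adjusted p = 0.638) was 0.95 ± 0.68 without libraries 3 and 4 (adjusted p = 0.696). Leaving out the shallowest library, axonal knockdown 5, moved the median of the members from -0.03 to 0.25 and that of all genes from -0.17 to -0.04. The ratio of the members' sum to the pan-neuronal sum was 0.568 to 1.39 in axonal knockdown libraries, a range that holds the 1.04 to 1.29 of the axonal controls.

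The difference of the knockdown effect between compartments did not pass the test for any member. In the interaction test over all 20 libraries limma called 0 members at an unadjusted p, where 5.61% of all genes were called, and 0 at an adjusted p, where 0.0711% were. The median interaction was -0.16 over the members and -0.04 over all genes. The active-zone transcript Rims1 was at 1.12 ± 0.59 (adjusted p = 0.925). Without axonal knockdown 3 and 4 the median of the members was -0.50, against -0.08 over all genes. At an unadjusted p 4 members were then lower (12.1%) and 0 higher. Of all genes 8.33% passed that threshold, 4.58% lower and 3.75% higher. The higher share among all called genes was 49.1% with scaling and 80.3% as deposited, where 1 member was called.

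Other genes of vesicle release and recycling, a list of 66 that are not members, were measured in the same fits. In control axons their median difference was -0.58 over 64 tested, between the -0.99 of the members and the -0.06 of all genes, with 7 falling (10.9%, where 2.97% of all genes did) and 2 rising (3.12%, where 3.93% of all genes did) at an adjusted p. The largest falls were those of Doc2b, a calcium sensor (3.53 FPKM on average in somatodendritic and 0.00 in all axonal controls), Syt2, a synaptotagmin of fast synapses (-1.72 ± 0.41, 7.67 and 1.02 FPKM, adjusted p = 0.0318), and Rph3a, a Rab3 effector (-1.58 ± 0.42, adjusted p = 0.0492). The 2 that rose were Syngr2, a synaptogyrin found in many tissues (2.04 ± 0.52, 4.39 and 14.8 FPKM, adjusted p = 0.0404), and Unc13b, the second Munc13 (1.64 ± 0.42, 6.27 and 17.2 FPKM, adjusted p = 0.0401). All 5 kept their sign, but the adjusted threshold was passed in 9 of 16 alternatives for Doc2b and Syt2, and in 4, 5 and 6 of 17 for Rph3a, Syngr2 and Unc13b.

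The list held 3 transcripts that responded to knockdown in the somatodendritic compartment at an adjusted p, out of 63 tested (4.76%, where 0.974% of all genes were called) with a median of -0.09. Syngr3, a vesicle membrane protein of the synaptogyrin family, held 20.5 to 26.5 FPKM in control and 2.76 to 9.39 FPKM in knockdown libraries. It fell by 1.98 ± 0.31 on the log2 scale (adjusted p = 0.00795) and passed the threshold in 18 of 20 settings. Dnm3, a dynamin paralog, held 32.2 to 37.8 FPKM and 61.0 to 112 FPKM and rose by 1.03 ± 0.19 (adjusted p = 0.0227, 13 of 20 settings). Scamp5, a secretory carrier membrane protein of neurons, held 45.3 to 53.5 FPKM and 76.5 to 100 FPKM and rose by 0.68 ± 0.14 (adjusted p = 0.0485, 9 of 20 settings). All 3 kept their sign in the 20 settings, and control and knockdown values of each were separate as deposited. In axons 0 of 62 passed the adjusted threshold and 3 the unadjusted one (2 lower, 1 higher, where 6.46% and 2.14% of all genes were), and the median was -0.11. Without axonal knockdown 3 and 4 the median was -0.30, with 6 lower and 2 higher at the unadjusted threshold, where 6.73% and 2.6% of all genes were, and 0 at the adjusted one.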

How the data were processed

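RNA-seq of the somatodendritic and axonal compartments of compartmentalized mouse motoneurons was analysed in 4 control and 6 Tdp-43 knockdown libraries per compartment. The authors computed the deposited FPKM values with Cufflinks 2.2.1 on GRCm38, 1 library at a time, with 95% intervals. FastQC 0.10.1 is also named in the submitters' processing notes, and the names of the deposited tables contain the word Star, with no aligner stated in the labels or methods. FPKM carry no read totals, so relative depth was inferred from the intervals over the 680 genes that reached over 3 implied fragments in each of the 20 libraries. Libraries were amplified by PCR, and the intervals cover counting error only. No count test was possible.

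Scaling factors of each fit came from the median of ratios, taken over genes of at least 1 FPKM in all its libraries. Values were set to log2(scaled FPKM + 1). Genes with a mean deposited level of at least 1 FPKM were fitted with lmFit and eBayes with a trend in limma 3.58.1 (R 4.3.3), and p-values were adjusted after Benjamini and Hochberg for every gene tested. The 5 comparisons were knockdown against control in each compartment, axonal against somatodendritic in each condition, and the interaction over 20 libraries. Tardbp was compared by a two-sided exact permutation test on FPKM. The limma script was tested on simulated data. Tables and plots were made with Python 3.11.15, numpy 2.4.6, pandas 2.3.3, scipy 1.17.1 and matplotlib 3.10.9. TG runs were read from GENCODE M21 transcripts on GRCm38, matched by gene identifier for all 33 members.

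The members, the list of other release genes and the marker lists were chosen with earlier results of these data known. Values in every library, or the lowest, median and highest in groups of 6, are given for members with an adjusted p under 0.05 in a knockdown comparison or in the interaction, for the 3 members with the largest change in each direction at an unadjusted p under 0.05 in each comparison, and for the 5 highest members in control axons. Of the other release genes, the 3 largest changes in each direction at an adjusted p under 0.05 are named. Not every gene that this rule selects is reported here. Alternatives were quantile normalization, no scaling at all, a pseudocount of 0.1 or 5, no filter or a mean of at least 5 FPKM, array weights, the replicate number as a block, all 20 libraries in 1 fit and leaving out each library in turn. Leaving out libraries of a relative depth under 0.5, or axonal knockdown 3 and 4 together, was chosen after seeing the data. The choice of axonal knockdown 3 and 4 rested on the levels of the members.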

Additional observations from a re-analysis of the deposited data

Results flagged for a closer look

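The 33 members and their summed level gave 136 groups of 4 or 6 libraries that could be tested for a library far from the others with Dixon's criterion, which chance meets in about 1 of 20 groups, and 11 of them held one. In axonal knockdown 3, Rab3b was at 77.2 FPKM (the others 0.00 to 28.7), Pclo at 57.4 FPKM (13.8 to 27.0) and Amph at 39.5 FPKM (0.00 to 12.3). Syt11 was at 71.6 FPKM in axonal control 4, where the other axonal controls held 29.1 to 29.7 FPKM. Napb was at 20.4 FPKM in axonal control 3 (the others 10.9 to 11.8). Sncg was at 4.89 FPKM in somatodendritic control 3 and at 3.07 FPKM in axonal control 4, with the other libraries of each group at 0, and at 18.5 FPKM in axonal knockdown 6 (the others 0.00 to 5.13). Sypl was at 16.5 FPKM in somatodendritic knockdown 5 (the others 0.00 to 5.27). Rims1 was at 18.6 FPKM in somatodendritic control 3 (the others 16 to 16.3) and Pclo at 29.6 FPKM in somatodendritic control 4 (33.99 to 34.6), both against neighbours that differed little.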

How the results depend on the processing

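The median difference of the members in axonal knockdown ranged from -0.58 to 0.45 over the alternatives. Of 363 values of single genes under alternatives, 300 kept their side of the adjusted or unadjusted threshold 63 no longer passed it and 0 changed sign. The number of members at an unadjusted p under 0.05 in somatodendritic knockdown was 8, and 4 as deposited, 0 in the fit over all 20 libraries and 6 to 8 without 1 replicate. At an adjusted p it was 0, and 1 as deposited, under array weights and without the shallow libraries. In axonal knockdown 1 member, which was higher, passed the unadjusted threshold. It was 2 as deposited, with quantile normalization and with array weights, 0 with a pseudocount of 0.1, with no filter and with a mean of at least 5 FPKM, 3 in the fit over all 20 libraries and without axonal knockdown 3 and 4 (then 3 lower), and 0 to 2 without 1 replicate (2 lower without axonal knockdown 3, 1 lower without 4). Between compartments in control, 24 members unadjusted became 15 in the fit over all 20 libraries, and 13 adjusted became 24 as deposited, 2 in the fit over all 20 libraries and 6 to 18 without 1 replicate. In knockdown, 0 adjusted became 3 as deposited, with a pseudocount of 5, a mean of at least 5 FPKM or array weights, 2 with quantile normalization, 10 in the fit over all 20 libraries, 16 without axonal knockdown 3 and 4 and 0 to 7 without 1 replicate. In the interaction, 0 unadjusted became 1 as deposited or with array weights, 4 without axonal knockdown 3 and 4 and 0 to 1 without 1 replicate. Axonal Tardbp was 35.1% of control after scaling (exact permutation p = 0.00952) and 36.5 to 62.5% without 1 replicate. The cause of these shifts was not tested.

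Samples of the same replicate number did not deviate together. The correlations of their deviations lay between -0.0356 and 0.0714, and 3 of 18 pairs matched best with their own number. These values do not decide whether a number marks 1 culture, because noise between amplified libraries can hide a shared deviation. With the replicate number as a block, 6 members passed the unadjusted threshold in somatodendritic knockdown (4 lower and 2 higher, where 1312 and 807 of 13762 genes were). In axonal knockdown 3 were higher and 0 lower, where 478 and 876 of 13958 genes were. The axonal median was then 0.33 over the members and -0.06 over all genes. Between compartments in control 8 passed the adjusted threshold, and the block changed no other count by over 1.5 times. In axonal knockdown 5, the shallowest library, the upper bound of the deposited 95% interval lay 369% above the value for the median of the members above 0 FPKM.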
